A study of Mus musculus with 6 samples.

Results

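A set of 9 genes that mark the bone marrow stroma and its niche cells was followed in sorted mouse hematopoietic progenitors with and without the transcription factor SRF. The genes were Col1a1, Col1a2, Col3a1, Sparc, Pdgfra, Pdgfrb, Cxcl12, Kitl and Lepr, and each was read by every probe set that the platform annotation assigned to it alone. This gave 26 probe sets for 9 genes, out of 45037 probe sets and 18193 genes measured. The cells were LSK cells (lineage-negative, Sca1-positive, c-Kit-positive bone marrow cells), which hold the blood stem cells and multipotent progenitors, and they were taken by flow cytometry from pooled animals. Control mice were Srf+/+;Mx1-Cre and SRF-null mice Srf flx/flx;Mx1-Cre, all C57BL/6, with 3 arrays per genotype. Both genotypes carried the Mx1-Cre transgene, whose promoter is switched on by interferon in many cell types, and both received pIpC, a double-stranded RNA that induces interferon. It was given at 6 weeks of age as 3 injections of 200 µg spaced 2 days apart, and the cells were collected 35 days after the last one. The number of animals in a pool was not stated, and the p-values below therefore reflect the variation among these pools, part of which may be technical.

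In the bone marrow, blood stem cells lie next to perivascular mesenchymal cells that carry the leptin receptor (Lepr) and the receptors for platelet-derived growth factor (Pdgfra and Pdgfrb). These stromal cells secrete the chemokine CXCL12, which holds stem cells in the marrow through the receptor CXCR4, and display or release stem cell factor (Kitl), the ligand of c-Kit. They and bone-forming cells also lay down the matrix, which includes type I collagen (Col1a1 and Col1a2 chains), type III collagen (Col3a1) and the collagen-binding glycoprotein SPARC. Sorted LSK cells should hold few such cells, so the first question was which of these transcripts gave a signal at all.

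Pdgfrb, Col1a2 and Sparc gave clear signals, and the other 6 genes lay at or near the background of the arrays. As a measure of background, the 27 control probe sets directed at genes of the bacterium Bacillus subtilis were used. It was not stated whether bacterial RNA was added as a spike. The deposited signals of these probe sets ranged up to 59.2 with a median of 3.86. The highest values came from a single probe set, AFFX-PheX-3_at (42.7 to 59.2), and the next highest, AFFX-TrpnX-3_at, reached 31.1. Statements below about the bacterial controls and their range use 59.2. Probe sets differ in how well they bind, so this level is a guide and not a detection call. On all 6 arrays 5 of the 26 stroma and niche probe sets exceeded 59.2, which is 19.2% of them, against 55.8% of all 45037 probe sets. A further 5 exceeded it on some arrays and 16 on none. The 5 were both probe sets of Pdgfrb, 2 of the 3 of Col1a2, and the brightest of Sparc. The second Sparc probe set exceeded it on 5 arrays.

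**Figure D1:**
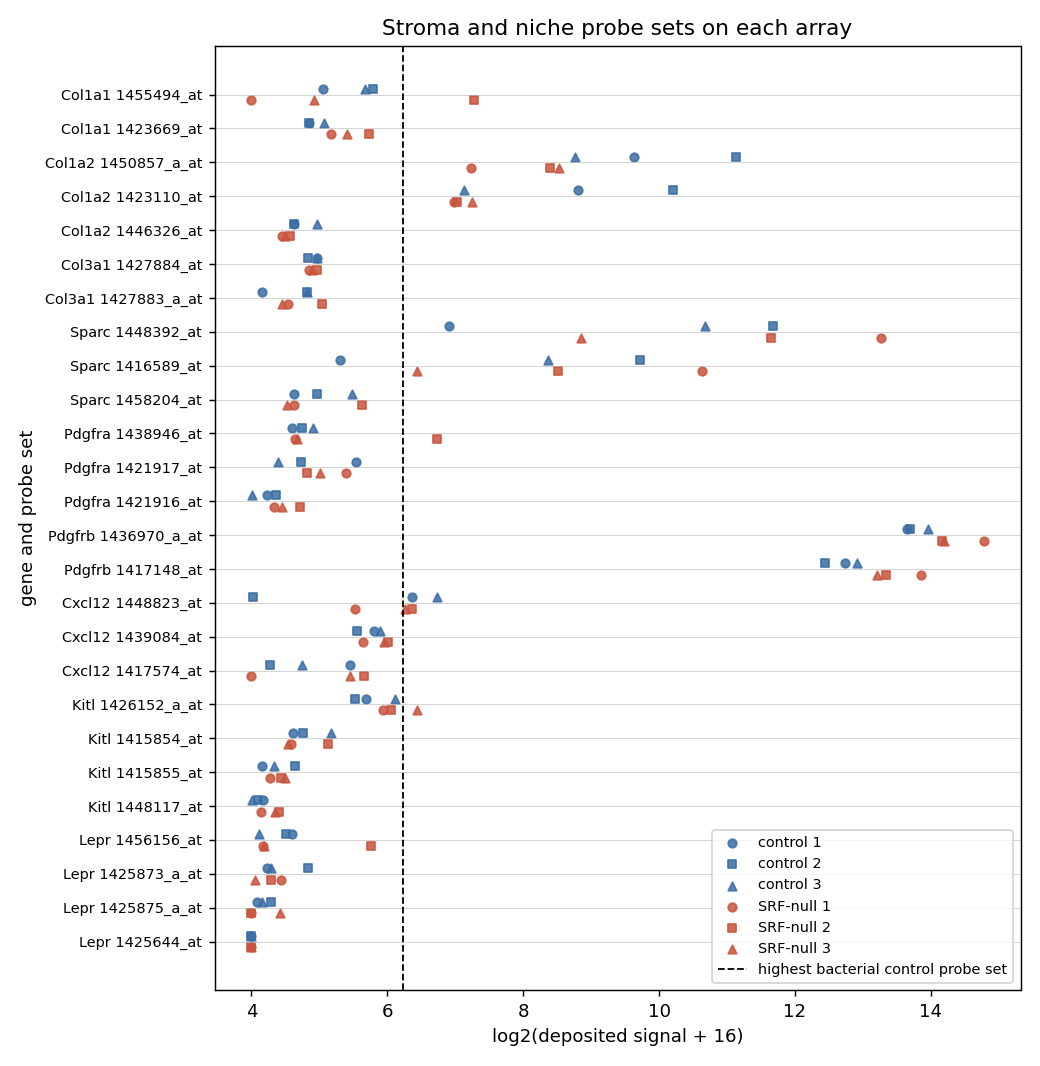
Deposited signal of each of the 26 stroma and niche probe sets, as log2(signal + 16) before normalization, on the 3 control arrays (blue) and the 3 SRF-null arrays (red), with replicates 1 to 3 as circles, squares and triangles. The dashed line is the highest of the 27 bacterial control probe sets, and the 5 probe sets wholly to its right belong to Pdgfrb, Col1a2 and Sparc.

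Arrays were compared as normalized log2(signal + 16), a scale whose lowest value is 4 and which understates changes of dim genes, and differences are SRF-null minus control with limma's standard error (SE). By limma with Benjamini-Hochberg adjustment over all probe sets, 0 of the 26 probe sets passed an adjusted p of 0.05, as did 0 of all 45037 (0%). At an unadjusted p under 0.05 there were 4 of 26, against 4.39% of all probe sets, namely both probe sets of Pdgfrb, the brightest of Col1a2 and the dimmer of Col1a1. Of these, 3 were higher in SRF-null cells (2.37% of all probe sets) and 1 was lower (2.02%). The genotypes did not overlap on 5 of 26 probe sets, against 9.15% of all, with 3 higher in SRF-null cells (4.69% of all) and 2 lower (4.47%). The median difference was 0.14 over the 26 probe sets and 0.00 over all probe sets, and over the brightest probe set of each gene it was 0.34 for the 9 genes and -0.01 for all 18193. On these probe sets 2 of 9 genes, Pdgfrb and Col1a2, had an unadjusted p under 0.05 (4.95% of all genes), and the same genes had no overlap, 1 higher (5.11% of all genes) and 1 lower (5.39%). Arrays of bulk cells cannot tell fewer cells of a type from less RNA per cell.

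**Figure D2:**
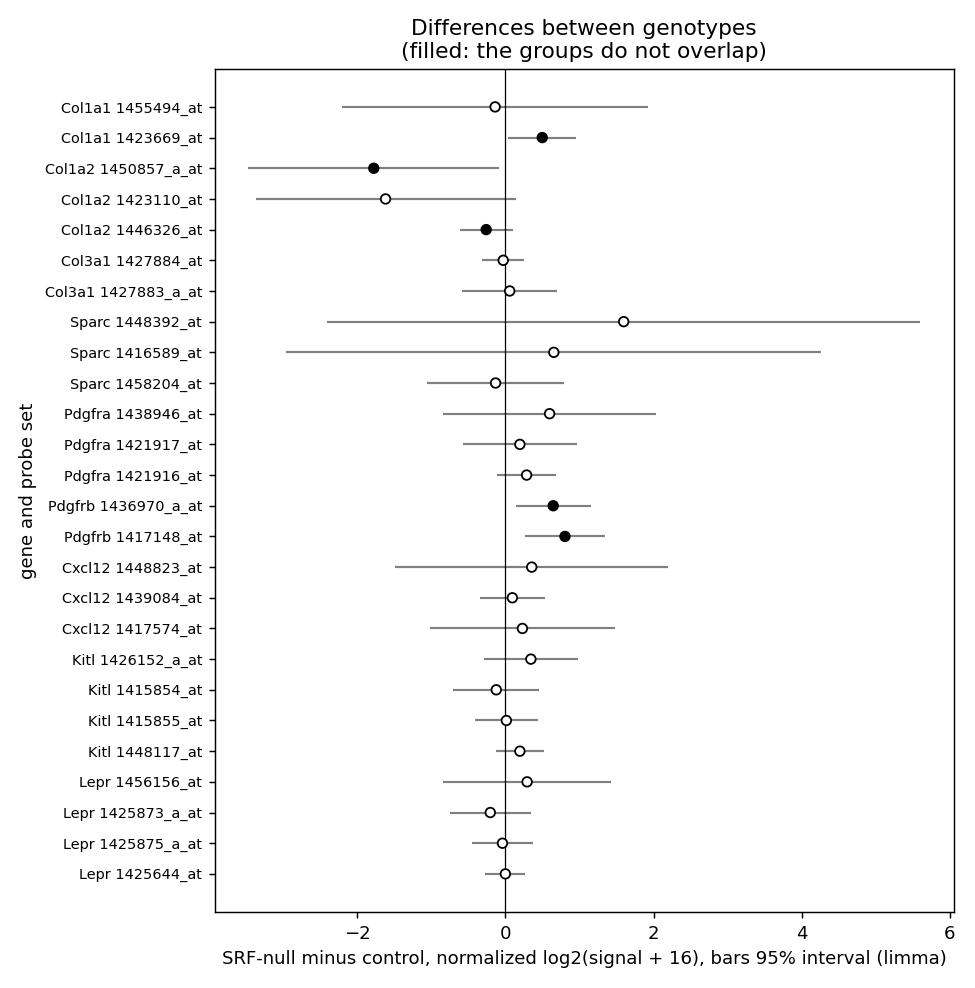
Difference between genotypes (SRF-null minus control, on the normalized log2 scale) for each of the 26 probe sets, with its 95% interval from limma, and with filled points where the 3 SRF-null arrays lay wholly on one side of the 3 control arrays. The 2 Pdgfrb probe sets lie to the right of 0 and the Col1a2 probe sets to the left, and the widest intervals belong to Sparc.

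The arrays differed in transcripts of the sex chromosomes. On control replicate 2 the Y-linked gene Eif2s3y lay at 4.37 against 13.06 or more on every other array, and Kdm5d and Uty lay at the bottom of the scale. On SRF-null replicate 1 Xist, the RNA of the inactive X chromosome, lay at 5.03 against 15.13 or more on every other array. Both kinds of transcript were present on the other 4 arrays. All 3 measured Y-linked genes were also higher on every SRF-null array than on any control array, with summed signals of 4.37 to 18665 on control arrays and 21905 to 27266 on SRF-null arrays, and Xist differed by -4.01 (SE 2.83). The sex make-up of the pools thus differed between the genotypes as well as between arrays, and its part in the results was not tested beyond leaving out these 2 arrays. The sort marker c-Kit (14.81 to 15.44) and the progenitor subset markers Cd34 (16.72 to 16.93) and Flt3 (15.10 to 15.68) were strong on all arrays. Slamf1, a marker of stem cells within this gate, gave 11.60, 12.33 and 11.80 in control cells and 11.61, 10.73 and 9.18 in SRF-null cells, a difference of -1.40 (SE 0.62) with an unadjusted limma p of 0.0643. Over all probe sets the deviations of equally numbered arrays from their group means correlated at 0.473, 0.21 and 0.427 for replicates 1, 2 and 3, so replicate numbers were treated as pairs in an alternative fit.

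Of the growth factor receptors, Pdgfrb, which encodes the platelet-derived growth factor receptor of pericytes and other mural cells, was higher in SRF-null cells on both of its probe sets. On its brightest probe set, 1436970_a_at, the control arrays gave 13.64, 13.65 and 13.95 and the SRF-null arrays 14.77, 14.21 and 14.21. All 3 SRF-null arrays lay above all 3 control arrays, and SRF-null replicate 1 was the highest. The group means were 13.75 ± 0.18 and 14.39 ± 0.32 (SD, n = 3 arrays each), a difference of 0.65 (SE 0.21, 95% interval 0.14 to 1.15), or 1.56-fold. The limma p was 0.0209 unadjusted and 1 after adjustment over all probe sets, so the difference did not pass.

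The second Pdgfrb probe set, 1417148_at, gave 12.71, 12.43 and 12.90 on the control arrays and 13.86, 13.37 and 13.23 on the SRF-null arrays. The genotypes again did not overlap, and the difference was 0.80 (SE 0.22, 95% interval 0.26 to 1.35), or 1.75-fold, with a limma p of 0.0111 unadjusted and 1 adjusted. Taken by replicate number, the SRF-null array was higher in all 3 pairs on both probe sets, by 1.13, 0.55 and 0.25 on the brightest and by 1.15, 0.94 and 0.33 on the other. The first pair gave the largest difference in both. Without control replicate 2 and SRF-null replicate 1 the differences were 0.41 (SE 0.21) and 0.49 (SE 0.20), with unadjusted limma p-values of 0.132 and 0.0714.

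The other genes of mural cells were mixed in direction. Of 13 mural and smooth muscle genes measured, 3 exceeded the bacterial controls on all arrays, 6 were higher and 7 lower in SRF-null cells, and their median difference was -0.07. At an unadjusted limma p under 0.05 there were 0 higher and 1 lower, where 2.58% and 2.37% of all genes were called in those directions. The 1 was Notch3, a Notch receptor of arterial mural cells, at -0.74 (SE 0.29), with overlapping groups. The smooth muscle actin gene Acta2 gave 6.03, 5.70 and 5.22 in control cells and 6.74, 6.19 and 5.95 in SRF-null cells. It was higher in each replicate pair, as Pdgfrb was, by 0.64 overall (SE 0.30, unadjusted limma p of 0.0730), but the groups overlapped and it exceeded the bacterial controls only on SRF-null replicate 1. The pericyte gene Rgs5 was dim on all arrays, at signals of 4.01 to 7.18. Besides Notch3, the genes above the bacterial controls on all arrays were Myh11 (signals of 126 to 182) and Cspg4 (113 to 172). They differed by -0.17 (SE 0.21) and -0.11 (SE 0.28). The summed signal of the list was 882 to 1015 on control arrays and 808 to 861 on SRF-null arrays, and the muscle filament gene Des was near 0 with signals up to 4.96. The part of mural cells in the Pdgfrb difference was not tested.

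The related receptor gene Pdgfra, which marks mesenchymal progenitors, was dim. Its probe set with the highest mean, 1438946_at, gave 4.596, 4.76 and 4.91 in control cells and 4.66, 6.75 and 4.65 in SRF-null cells. SRF-null replicate 2 stood alone above the other 5 arrays, with a deposited signal of 90.0 against 8.25 to 13.9. The difference was 0.60 (SE 0.59) and turned to -0.10 without that array. The other probe sets, 1421917_at and 1421916_at, reached signals of 30.5 and 10.2 at most and differed by 0.20 (SE 0.31) and 0.29 (SE 0.16).

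Genes of the platelet-derived growth factors themselves were read from the same arrays. Pdgfa was measured at 10.01, 8.98 and 10.10 in control cells and 11.03, 10.78 and 9.94 in SRF-null cells, a difference of 0.89 (SE 0.41) with overlapping groups. Pdgfb, a ligand of both receptors, was dim at signals of 22.1 to 57.0 and differed by 0.00 (SE 0.30). Pdgfd, a ligand of the Pdgfrb product, ranged from 10.55 to 12.86 and differed by 0.47 (SE 0.79). Pdgfc differed by -0.18 (SE 0.57).

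The leptin receptor gene Lepr, which marks the perivascular stromal cells that are the main source of CXCL12 and stem cell factor in marrow, stayed within the bacterial control range on all 4 probe sets and all arrays. Its brightest probe set, 1456156_at, gave 4.598, 4.54 and 4.12 in control cells and 4.19, 5.76 and 4.18 in SRF-null cells. SRF-null replicate 2 was again the high array, at a signal of 38.4 against 1.28 to 8.28, and the difference of 0.29 (SE 0.46) turned to -0.23 without it. The probe sets 1425873_a_at and 1425875_a_at differed in the other direction, by -0.20 (SE 0.22) and -0.04 (SE 0.17). The last probe set, 1425644_at, sat at the bottom of the scale on all 6 arrays. Lep, which encodes the ligand leptin, was also dim, with signals up to 6.91.

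**Figure D3:**
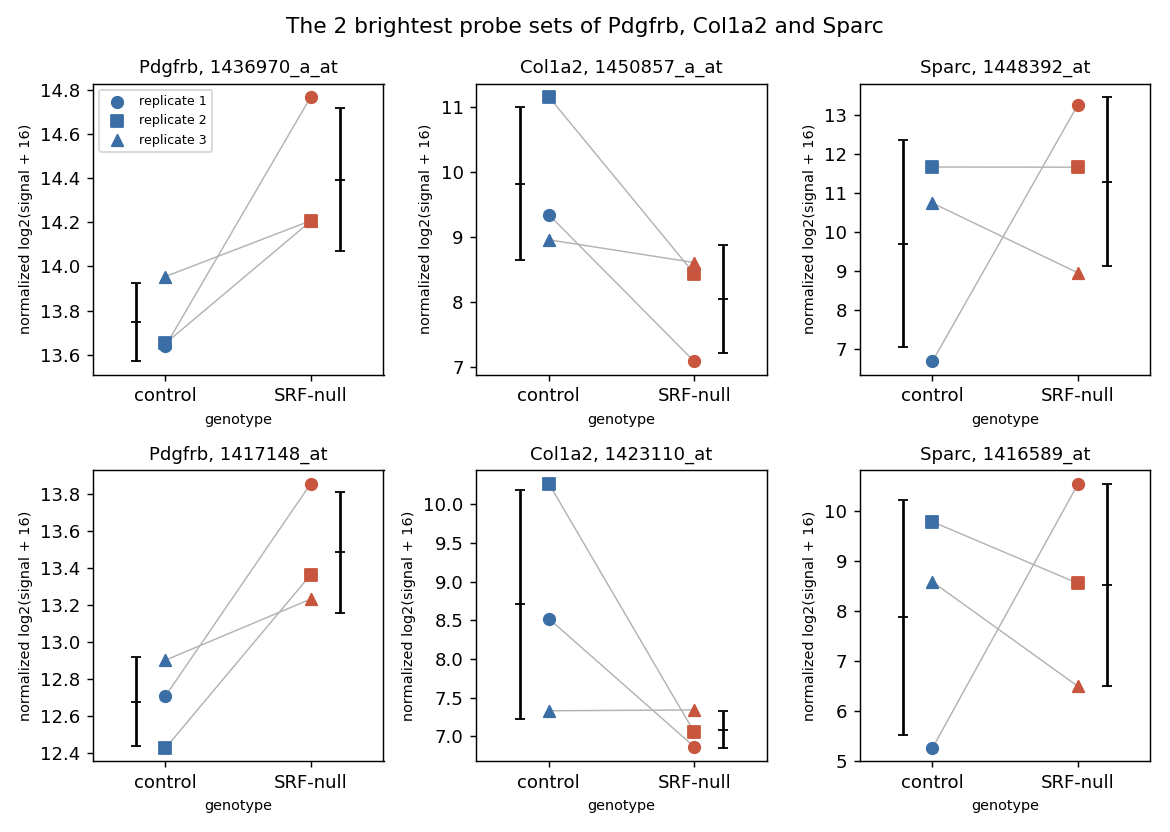
Normalized log2(signal + 16) on each array for the 2 brightest probe sets of Pdgfrb, Col1a2 and Sparc, with grey lines joining arrays of equal replicate number and black bars showing the group mean ± SD (n = 3). The vertical axes differ in range between panels and do not start at 0. Pdgfrb is higher in SRF-null cells in all 3 pairs, Col1a2 is highest on control replicate 2, and Sparc varies more within a genotype than between genotypes.

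Among the matrix genes, Col1a2, which encodes the alpha 2 chain of type I collagen, had the largest difference towards lower values in SRF-null cells. On its brightest probe set, 1450857_a_at, the control arrays gave 9.35, 11.16 and 8.96 and the SRF-null arrays 7.09, 8.44 and 8.61. The highest SRF-null array was under the lowest control array, with deposited signals of 134 to 352 against 419 to 2230, but control replicate 3 and SRF-null replicate 3 were close. The group means were 9.82 ± 1.18 and 8.05 ± 0.83 (SD, n = 3 arrays each). The difference was -1.78 (SE 0.69, 95% interval -3.47 to -0.08), or 3.43-fold lower, with a limma p of 0.0426 unadjusted and 1 adjusted, so it did not pass.

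Control replicate 2 carried much of this difference. Without it the difference was -1.11 (SE 0.52, unadjusted limma p of 0.0872), and when SRF-null replicate 1 was dropped as well it was -0.63 (SE 0.24, unadjusted p of 0.0570). The second probe set, 1423110_at, gave 8.52, 10.27 and 7.33 in control cells and 6.87, 7.06 and 7.34 in SRF-null cells. Here control replicate 3 and SRF-null replicate 3 differed by only 0.01, so the groups overlapped, and the difference was -1.62 (SE 0.72). Without control replicate 2 it was -0.84 (SE 0.40). The dim probe set 1446326_at differed by -0.26 (SE 0.15). By replicate number the brightest probe set was lower in all 3 pairs, with differences of -2.26, -2.72 and -0.35.

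For Col1a1, which encodes the partner chain of type I collagen, the 2 probe sets differed in sign. The probe set with the highest mean, 1455494_at, gave 5.03, 5.86 and 5.75 in control cells and 4.004, 7.30 and 4.92 in SRF-null cells. The SRF-null arrays held both the lowest and the highest value, and the difference was -0.14 (SE 0.84). The other probe set, 1423669_at, gave 4.83, 4.88 and 5.09 against 5.16, 5.73 and 5.41. Here all SRF-null arrays lay higher, by 0.50 (SE 0.19, unadjusted limma p of 0.0372), although its signals of 12.7 to 37.3 were within the range of the bacterial controls.

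Col3a1, which encodes the chain of type III collagen, was near background. On its brightest probe set, 1427884_at, the 6 arrays spanned 4.86 to 4.98, at signals of 12.5 to 15.4, and the genotypes differed by -0.03 (SE 0.12, 95% interval -0.31 to 0.25). On 1427883_a_at the difference was 0.06 (SE 0.26). Both probe sets lay within the bacterial control range on every array.

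Sparc, which encodes an extracellular glycoprotein that binds collagen and is also stored in platelets, varied more between arrays than any other of the 9 genes. Its brightest probe set, 1448392_at, gave 6.67, 11.67 and 10.75 in control cells and 13.27, 11.67 and 8.95 in SRF-null cells. The deposited signal ran from 104 on control replicate 1 to 9855 on SRF-null replicate 1, a span of 6.59 on the log2 scale, and the genotypes overlapped. The means were 9.70 ± 2.66 and 11.30 ± 2.18 (SD, n = 3 arrays each), and the difference of 1.60 (SE 1.63, 95% interval -2.40 to 5.60) had an unadjusted limma p of 0.366. The second probe set, 1416589_at, placed the lowest 2 and the highest 2 arrays in the same order, at 5.25, 9.79 and 8.59 in control cells and 10.54, 8.56 and 6.49 in SRF-null cells, with a difference of 0.65 (SE 1.47).

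The Sparc difference depended on single arrays. On the brightest probe set it was 0.08 without control replicate 1, 0.61 without SRF-null replicate 1, 2.58 without control replicate 2 and 2.76 without SRF-null replicate 3. On the second probe set it turned to -0.65 without control replicate 1 and to -0.36 without SRF-null replicate 1, and was 1.61 without control replicate 2, 1.02 without control replicate 3 and 1.68 without SRF-null replicate 3. The dim probe set 1458204_at differed by -0.13 (SE 0.38). By replicate number the pairs differed by 6.59, -0.01 and -1.79, so 1 pair was much higher in SRF-null cells and 1 was lower. Megakaryocyte and platelet genes were well above background, with 12 of 13 above the bacterial controls on all arrays. Their summed signal was 32306 to 53427 on control arrays and 31238 to 70932 on SRF-null arrays. The mean log2 level of the list was 9.56, 9.97 and 10.57 on the control arrays and 9.71, 10.42 and 10.65 on the SRF-null arrays. It was lowest on control replicate 1, as Sparc was, but next lowest on SRF-null replicate 1, where Sparc was highest. The part of these cells in the Sparc signal was not tested.

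The 300-base windows at the annotated starts of Col1a2 and Sparc (250 bases before to 50 after, RefSeq, GRCm38.p6) are shown because these genes gave the largest difference and the largest spread among the arrays. SRF binds DNA at a motif called the CArG box. Both strands were searched for it and for motifs of general promoter factors. These were CCAAT, then the TATA-box motif TATAAA, then the GC-box motif GGGCGG, and matches may overlap each other. Capitals mark the matches, and a CCAAT on the opposite strand reads in reverse complement. The Col1a2 window is chr6:4505368-4505667 on the plus strand and the Sparc window chr11:55420031-55420330 on the minus strand.
Col1a2: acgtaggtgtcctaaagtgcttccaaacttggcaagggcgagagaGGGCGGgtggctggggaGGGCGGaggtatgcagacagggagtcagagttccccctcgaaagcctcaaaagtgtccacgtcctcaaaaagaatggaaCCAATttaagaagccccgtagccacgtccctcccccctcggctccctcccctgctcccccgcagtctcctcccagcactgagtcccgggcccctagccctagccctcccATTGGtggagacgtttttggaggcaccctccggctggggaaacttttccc
Sparc: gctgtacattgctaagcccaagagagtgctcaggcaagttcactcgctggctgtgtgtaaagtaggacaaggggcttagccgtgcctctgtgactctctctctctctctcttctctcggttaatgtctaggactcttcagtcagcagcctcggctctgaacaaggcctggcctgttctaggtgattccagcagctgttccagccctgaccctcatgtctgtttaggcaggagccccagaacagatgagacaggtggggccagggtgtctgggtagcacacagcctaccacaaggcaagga

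The Col1a2 window held 2 GGGCGG matches and 2 CCAAT matches, and none of the 4 motifs was matched in the Sparc window. The CArG box was searched only as CC, then 6 bases of A or T, then GG. No CArG box was matched in these windows or in the 6 others searched. Those were of Col3a1, Pdgfra, Cxcl12, Kitl and Lepr (2 for Lepr), and 1.63% of 32851 windows of this length hold one. Pdgfrb was left out of the search, and Col1a1 had no window. CCAAT was present in 37.4% of all windows, GGGCGG in 35.7% and TATAAA in 13.6%. TATAAA was matched in the windows of Col3a1 and Kitl. A match is a description of these letters, and the lack of one says nothing of sites elsewhere.

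The genes whose pattern over the 6 arrays lay nearest to that of the brighter members were found from values centred on each gene's own mean, as the root mean square distance in log2 units. Nearest to Sparc were Elobl (0.62), Spsb1 (1.04), which encodes a ubiquitin ligase adaptor, and Trem1 (1.10), a receptor gene of neutrophils and monocytes. All had their lowest value on control replicate 1. Nearest to Col1a2 were the homeobox gene Hoxb9 (0.31), the amino acid transporter gene Slc6a15 (0.40) and the kinesin gene Kif21a (0.44), and each was highest on control replicate 2 and lowest on SRF-null replicate 1. Nearest to Pdgfrb were Armcx4 (0.12), the inducible stress gene Gadd45b (0.14) and Spa17 (0.16). With 6 arrays and 18193 genes, close patterns arise readily, and these distances describe the arrays only.

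The dim members had near neighbours as well. Nearest to Col1a1 were AA414768 (0.19), the calcium channel gene Ryr3 (0.34) and 4930412B13Rik (0.37). Nearest to Pdgfra were Ntf5 (0.11), Rph3al (0.13) and Gm7854 (0.14), and nearest to Lepr were Gm2011 (0.09), Gm11767 (0.14) and Ltbp2 (0.15). For Col1a1, Pdgfra and Lepr every one of these 9 neighbours was highest on SRF-null replicate 2. Nearest to Cxcl12 were Caskin2 (0.34), the complement receptor gene C5ar1 (0.43) and the lipoxygenase gene Alox15 (0.44).

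The niche ligand genes lay at or near the background. Cxcl12 on its brightest probe set, 1448823_at, gave 6.19, 4.03 and 6.91 in control cells and 5.51, 6.38 and 6.31 in SRF-null cells. Control replicate 2 was the low array, at a signal of 0.356 against 30.2 to 90.0 on the other 5 arrays, and the genotypes overlapped. The difference was 0.36 (SE 0.75, 95% interval -1.49 to 2.20) and turned to -0.49 without control replicate 2. The other probe sets, 1439084_at and 1417574_at, differed by 0.09 (SE 0.18) and 0.23 (SE 0.51) and stayed within the bacterial control range. Cxcr4, the receptor of CXCL12, ranged from 15.76 to 16.17 over the arrays and differed by -0.06 (SE 0.16). Ackr3, which encodes the other CXCL12 receptor, was dim, and Dpp4, whose product cleaves CXCL12, ranged from 16.02 to 16.47 with a difference of 0.20 (SE 0.15).

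Kitl, the stem cell factor gene, had 1 of its 4 probe sets above 59.2 and on only 1 array. This probe set, 1426152_a_at, gave 5.59, 5.58 and 6.24 in control cells and 5.89, 6.05 and 6.49 in SRF-null cells. The SRF-null array was higher in each replicate pair, by 0.30, 0.48 and 0.26, but the groups overlapped and the difference was 0.34 (SE 0.26, 95% interval -0.29 to 0.98). When pairs were modelled as blocks its unadjusted limma p was 0.0584. The other probe sets, 1415854_at, 1415855_at and 1448117_at, differed by -0.12, 0.01 and 0.20. Kit, which encodes the receptor, differed by -0.20 (SE 0.19).

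Wider stromal lists were read in the same way, on the brightest probe set of each gene. Of 37 other matrix and mesenchymal genes, 11 exceeded the bacterial controls on all arrays, 19 were higher and 18 lower in SRF-null cells, and the median difference was 0.00. At an unadjusted limma p under 0.05 there were 3 higher and 3 lower (2.58% and 2.37% of all genes), and 0 passed the adjustment. The protease gene Mmp14 (1.11, SE 0.24, at signals of at most 87.8) and the thrombospondin gene Thbs2 (1.84, SE 0.43) were higher. The basement membrane collagen gene Col4a1 (-0.95, SE 0.32) and the gelatinase gene Mmp2 (-1.05, SE 0.36) were lower. Col4a1 and Mmp2 were bright on all arrays, at signals of at least 3614 and 1637. The stromal matrix genes Dcn (3.53 to 12.3) and Lum (2.81 to 6.92) were within the bacterial control range on every array. Others of the list, Bgn (4875 to 12665), Fbln1 (246 to 367) and Fap (77.3 to 149), exceeded it on every array.

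Genes of collagen processing, most of which serve secretory cells in general, were above the bacterial controls on all arrays for 18 of 25. Of the 25, 6 were higher and 19 lower in SRF-null cells, with a median difference of -0.16 beside -0.01 for all genes. Only Adamts3, a procollagen protease gene, had an unadjusted limma p under 0.05, at 0.89 (SE 0.23), where 2.58% of all genes were called higher and 2.37% lower. The collagen chaperone gene Serpinh1 differed by -1.03 (SE 0.56). Of the 20 genes that connect blood cells to these signals (receptors, ligands and signal transducers), 11 were higher and 9 lower. The collagen receptor gene Ddr1 was the 1 with an unadjusted limma p under 0.05 (2.37% of all genes were called lower). It differed by -1.42 (SE 0.57), with overlapping groups.

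Of 24 other reticular niche genes, 11 were higher and 13 lower, with a median difference of -0.05, and 1 higher and 2 lower had an unadjusted limma p under 0.05 (2.58% and 2.37% of all genes). The Notch ligand gene Jag1 differed by -1.68 (SE 0.22), the growth factor gene Bmp4 by -1.36 (SE 0.30) and Esm1 by 1.22 (SE 0.32), and none passed the adjustment. Bmp4 and Esm1 stayed within the bacterial control range on every array. Angpt1, a niche factor that blood stem cells also express, was bright (15.75 to 16.22) and differed by -0.24 (SE 0.14). Of the 24 genes, 11 exceeded the bacterial controls on all arrays. Among them were Ptn (signals of 820 to 2878), Gas6 (2360 to 7485) and Vcam1 (376 to 1739). The transcription factor genes of reticular cells Foxc1 and Ebf3 had signals of at most 9.98 and 40.5. Ebf1, a transcription factor gene of the same list, exceeded the bacterial controls on all arrays, at signals of 85.3 to 1972.5. It differed by 1.79 (SE 0.95), with overlapping groups.

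Most bone and fat cell genes gave little signal. Of 14 osteolineage genes 2 exceeded the bacterial controls on all arrays, 6 were higher and 8 lower, and 0 had an unadjusted limma p under 0.05. The 2 were Ibsp, at signals of 64.9 to 99.1, and Omd, at 183 to 1962. The osteoblast transcription factor gene Sp7 had signals up to 16.9. Of 7 adipocyte genes 1, Car3, exceeded the controls on all arrays, at signals of 9749 to 22295. It differed by 0.69 (SE 0.23), with an unadjusted limma p of 0.0221 and no overlap of the groups. It was the 1 gene of the list under 0.05 (2.58% of all genes were called higher), and 3 were higher and 4 lower. The adipokine gene Adipoq, counted with the reticular genes, had signals of 1.96 to 35.0.

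**Figure D4:**
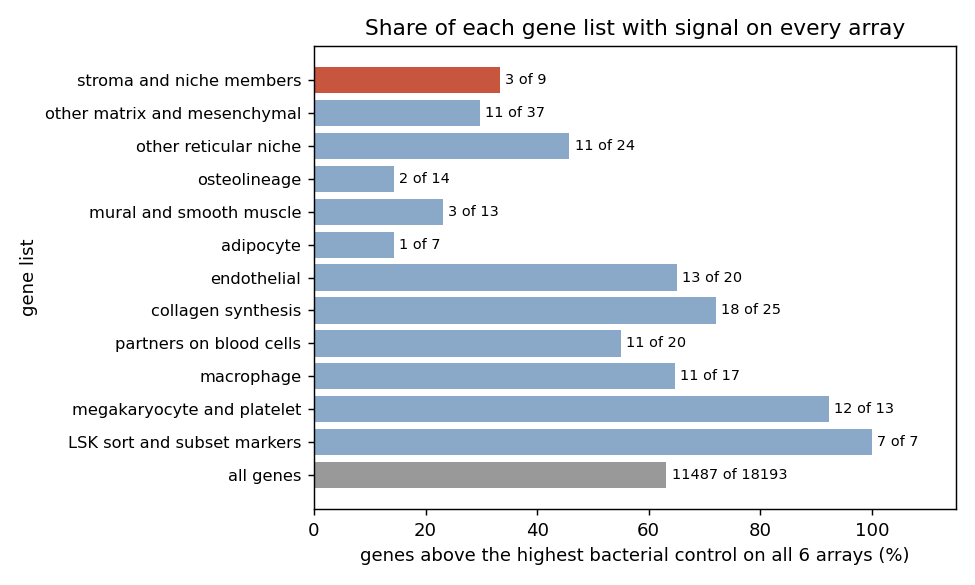
Percentage of the measured genes of each list, on the brightest probe set of each gene, whose deposited signal exceeded the highest bacterial control on all 6 arrays, with counts beside the bars and all 18193 genes in grey. The stroma and niche genes stand at 3 of 9, osteolineage and adipocyte genes at 2 of 14 and 1 of 7, and the LSK sort and subset markers at 7 of 7.

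Markers of other marrow cells that a sort could carry over were measured beside these genes. Of 20 endothelial genes 13 exceeded the bacterial controls on all arrays, and 9 were higher and 11 lower. At an unadjusted limma p under 0.05 there were 1 higher and 3 lower (2.58% and 2.37% of all genes). These were Tek (-0.84, SE 0.19), Eng (-0.66, SE 0.17) and Tie1 (-0.93, SE 0.24), receptors also carried by blood stem cells, and the tight junction gene Cldn5 (1.35, SE 0.43). The endothelial cadherin gene Cdh5 ranged from 6.39 to 7.40 and Plvap from 5.91 to 7.72. The endothelial gene Emcn was bright on all arrays, at signals of 4167 to 6660, and differed by 0.06 (SE 0.22). Whether endothelial cells gave any of these signals was not tested. Of 17 macrophage genes 16 were higher and 1 lower in SRF-null cells, with a median difference of 0.57 and 5 with an unadjusted limma p under 0.05, all of them higher (2.58% of all genes). Their summed signal was 14857 to 34411 on control arrays and 31692 to 43513 on SRF-null arrays, and the marker Vsig4 was near 0 on 1 array and reached 12.8 at most. Mrc1 differed by 2.08 (SE 0.55) and C1qa by 1.70 (SE 0.56). The mean log2 level of the list was 7.83, 7.90 and 7.95 on the control arrays and 8.07, 8.81 and 9.17 on the SRF-null arrays, with every SRF-null array above every control array. The part of macrophages in the differences of the stroma and niche genes was not tested.

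The remaining lists gave few calls. Of 13 megakaryocyte and platelet genes 10 were higher and 3 lower. The integrin gene Itgb3 was the 1 with an unadjusted limma p under 0.05 (2.37% of all genes were called lower). It differed by -0.70 (SE 0.27), with overlapping groups. All 6 measured lineage markers used to deplete mature cells were higher, where 8837 of all 18193 genes were. Cd4 was the 1 with an unadjusted limma p under 0.05 (2.58% of all genes were called higher). It differed by 1.11 (SE 0.34), with no overlap of the groups, and only Cd4 exceeded the bacterial controls on all arrays. Cd3e had signals of 4.66, 166 and 154 on the SRF-null arrays against at most 31.1 on control arrays. Of 8 erythroid genes 6 were higher and 2 lower, and of 9 B and plasma cell genes 6 were higher and 3 lower, with 0 at an unadjusted limma p under 0.05 in either list. The LSK sort and subset list had 4 of 7 higher, with 0 at that level.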

How the data were processed

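RNA from sorted LSK cells (30 ng of total RNA per sample, amplified by a NuGEN method and labelled with biotin, per the labels' protocols) was hybridised to 6 Affymetrix arrays. The deposited values are linear intensities, as judged from their range, with 1 value for each probe set on each array. How the authors summarised and scaled them is not stated in the labels. The array type in the series description differs from that of the annotation, and the annotation was used. Of 45101 probe sets 64 were Affymetrix controls, 34945 named 1 gene, 932 several and 9160 none, and gene IDs of 34741 were found in RefSeq (GRCm38.p6), used for names.

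Intensities were converted to log2(value + 16) and quantile normalized, since array medians ranged from 200.5 to 292.1. Arrays were compared with the lmFit and eBayes functions of limma 3.58.1 (R 4.3.3) in a model of genotype alone. Tests were two-sided, p-values were adjusted by Benjamini-Hochberg over all 45037 probe sets, and the procedure was tested on simulated data. Groups were said not to overlap where the gap exceeded 0.001 on the log2 scale. All probe sets of the 9 genes are named, then up to 4 genes with the smallest p of each list and the 3 genes of nearest pattern for members spanning at least 1 log2 unit; other genes named from the lists were chosen after their values were seen. The pairing of replicate numbers rests on correlations of the data (0.473, 0.21 and 0.427), not on the labels. The members, lists and alternatives were chosen with earlier results of these data known. The number of arrays limits the precision. Figures were drawn with matplotlib 3.10.9.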

Additional observations from a re-analysis of the deposited data

How the results depend on the processing

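Over 16 alternatives, 0 of the 26 probe sets passed an adjusted limma p of 0.05 in any. The count with an unadjusted p under 0.05 was 4 as reported and again 4 with the replicate number as a block (7.08% of all probe sets). It was 2 with an offset of 64 (4.84% of all). With 1 probe set per gene or with the mean over the probe sets of each gene it was 2 of 9 genes (5.74% and 5.16% of all genes). When 1 array was left out it was 1 to 5 (3.16% to 7.6% of all probe sets). It was 0 (2.87% of all) once control replicate 2 and SRF-null replicate 1 were dropped together. The count of probe sets whose genotypes did not overlap was 5 as reported and 3 after median centring (4.91% of all). It was 3 of the 5 that lay above the median level (10% of all such probe sets). In the gene-wise fits it was 2 of 9 genes (10.5% and 9.72% of all genes). Fewer arrays overlap less often, and it was 6 to 8 when 1 array was left out (15.7% to 24.7% of all). Without the 2 arrays it was 9 (27% of all). With the block, too, 0 passed the adjustment.

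Pdgfrb kept its direction in all 16 alternatives (0.41 to 0.75 on its brightest probe set) and so did Col1a2 (-2.19 to -0.63). This was largely set in advance. Changing the variance model, adding the block or restricting the probe sets tested left both differences unchanged. Groups that do not overlap can hardly change sign when arrays are left out. The unadjusted limma p ran from 0.00699 to 0.132 for Pdgfrb and from 0.0163 to 0.122 for Col1a2. Without control replicate 1 or SRF-null replicate 1 the second Sparc probe set turned to -0.65 and -0.36 (up to 1.68 without SRF-null replicate 3). Col1a1 turned to 0.082 with an offset of 64, to 0.18 with the mean of its probe sets, to 0.02 without control replicate 2, 0.55 without SRF-null replicate 1, 0.11 without SRF-null replicate 3 and 0.71 with both of those arrays (control replicate 2, SRF-null replicate 1) left out, and was -1.09 without SRF-null replicate 2. Col3a1 turned to 0.014 with the mean of its probe sets. Cxcl12 turned to -0.49 without control replicate 2 and to -0.20 without it and SRF-null replicate 1, and was 0.96 without control replicate 3. Pdgfra and Lepr turned to -0.10 and -0.23 without SRF-null replicate 2, with highest values of 0.95 and 0.61 when arrays were left out. The turned genes lay near the bacterial controls, apart from Sparc, and the cause was not tested.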
